A study of Mus musculus with 6 samples.

Results

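The 10 genes described here encode the 5 subunits of the transcription factor NF-kB (Rela, Rel, Relb, Nfkb1 and Nfkb2) and 5 of its inhibitors (Nfkbia, Nfkbib, Nfkbie, Nfkbiz and Tnfaip3). They were picked by gene symbol from the 24346 symbols of each library's table, and all 10 were found and passed the filter on low values described below. The cells were 4T1, a metastatic mammary carcinoma line of the mouse, and RNA was read from 3 groups of 2 libraries. WT cells were mock transfected, while shRNA1 and shRNA3 cells each expressed a short hairpin RNA aimed at AU021063, a long noncoding RNA. The labels give no group with a non-targeting hairpin, and do not say if the hairpin lines were clones or pools. Whether separate cultures stand behind a group's libraries is also not stated, so a p-value reflects library-to-library spread that may be purely technical.

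NF-kB proteins bind DNA as pairs of subunits. At rest, inhibitors of the IkB family hold them in the cytoplasm through ankyrin repeats, until receptors for TNF, IL-1 or microbial products activate the IkB kinase (IKK), which marks the inhibitor for destruction. In the canonical route p65 (Rela) pairs with p50, which is cut from the Nfkb1 product, and in the noncanonical route RelB pairs with p52, which is cut from the Nfkb2 product. Several inhibitor genes are themselves NF-kB targets, and so form feedback loops. In carcinoma cells the pathway is known for driving chemokines, growth factors for myeloid cells and survival genes. RNA levels show neither the cutting of the precursors nor the place of the proteins in the cell.

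Sequence around the start sites is shown first because the DNA site that NF-kB binds, the kappaB consensus, occurs near several of these genes. RefSeq promoter sequences (GRCm38.p6) were found for 7 of the 10 genes. The 250 bases before each start site were searched on both strands for the 10-base consensus. At least 1 match was present for 5 of the 7 genes (Rel, Nfkb2, Nfkbia, Nfkbie and Tnfaip3) and none for Rela and Nfkbib. Over all RefSeq promoters 7.25% of such windows held a match. Of the 8515 tested genes with a promoter sequence 10.6% had a match at any start site. A match describes letters in this window and does not show that a factor binds there. The sequences below read 5′ to 3′ along the gene, with the matches in capitals. The Nfkbia window (chr12:55492648-55492897, minus strand) and the Nfkbie window (chr17:45555450-45555699, plus strand) are whole, and the others are stretches of 30 bases.
Nfkbia: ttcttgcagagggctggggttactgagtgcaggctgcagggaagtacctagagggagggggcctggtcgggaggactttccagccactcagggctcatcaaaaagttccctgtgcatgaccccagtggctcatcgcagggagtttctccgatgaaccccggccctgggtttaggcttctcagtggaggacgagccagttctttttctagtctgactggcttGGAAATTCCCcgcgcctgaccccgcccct
Nfkbie: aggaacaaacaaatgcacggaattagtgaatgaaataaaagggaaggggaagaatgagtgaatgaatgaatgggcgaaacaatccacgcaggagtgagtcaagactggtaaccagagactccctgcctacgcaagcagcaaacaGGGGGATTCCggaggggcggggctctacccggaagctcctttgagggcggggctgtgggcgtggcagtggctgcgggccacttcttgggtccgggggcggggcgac
Tnfaip3, first start site, chr10:19015411-19015440, minus strand: gtgactggaatttccatcGGAAATCCCCct
Nfkb2, first start site, chr19:46304689-46304718, plus strand: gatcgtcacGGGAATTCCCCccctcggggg
Nfkb2 at the third start site, chr19:46305695-46305724, plus strand: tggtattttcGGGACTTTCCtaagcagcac
Rel, chr11:23771041-23771070, minus strand: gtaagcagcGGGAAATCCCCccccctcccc
The capitals of Rel and of the first Nfkb2 site span 2 overlapping matches each. Not every match is shown. Nfkb2 had 3 at its first start site and 1 at its second, and Tnfaip3 had 2 at its first and 0 at its second. The match of Nfkbia lay 29 to 20 bases before its start site, and that of Nfkbie 106 to 97 bases before.

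Values are in FPKM, fragment numbers scaled by transcript length and by the mapped total. Changes were tested with limma on log2(FPKM + 1) over the 11079 genes whose mean reached 1 FPKM, and passed at a Benjamini-Hochberg adjusted p under 0.05. On this scale the change of low genes is understated. Group values are means ± SD of n = 2 libraries. The targeted AU021063 gave 1.82 and 1.67 FPKM in the WT libraries, 1.04 and 0.572 in those of shRNA1, and 0.785 and a listed 0 in those of shRNA3. Its knockdown mean was 34.4% of that in WT (exact permutation test, two-sided, p = 0.133, the smallest that 4 against 2 libraries can give), and it was below the filter. The most frequent ratio of a library's low values to those of WT replicate 1 placed its depth at 86.8% to 105% of that library. The absolute depth is not known. Of the epithelial markers Krt8 and Krt18 were abundant, while Epcam and Cdh1 were low, at 2.11 and 1.25 FPKM in WT. Of 9 leukocyte markers measured 5 were at 0 in all libraries, the defining gene Ptprc (CD45) among them, and the summed level of 6.51 to 28.1 FPKM was nearly all Cd68, which was higher with each hairpin. The endothelial markers summed to 0.069 to 0.194 FPKM. The fibroblast markers summed to 59.7 to 70.8 FPKM, mostly Pdgfra, with Col3a1 at 0. Over both hairpins Pdgfra fell (log2 change -0.30, limma, adjusted p = 5.14e-04) and Col1a1, at 0.732 FPKM in WT, rose (0.66, adjusted p = 0.00139). Pdgfrb, at a mean of 19.7 FPKM, did not pass (-0.02, limma, adjusted p = 0.742). Krt8 fell with shRNA3 (-0.69, limma, adjusted p = 1.42e-05), and the epithelial sum was 736 to 740 FPKM there, against 932 and 965 in WT and 1022 and 1092 with shRNA1. The epithelial markers did not move as 1, since Epcam rose with each hairpin (0.80 and 0.46, limma, adjusted p = 0.00266 and 0.0184). Of the 6 tested, 3 were called higher and 1 lower with shRNA1, and 1 higher and 2 lower with shRNA3. Over all genes tested 17.6% were called higher and 18.4% lower with shRNA1, and 27.4% and 27.8% with shRNA3. The part of these marker changes in the results that follow was not tested. In bulk RNA, fewer cells that make a transcript and less of it per cell cannot be told apart.

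Most of the inhibitors rose, while the subunits were mixed. Over both hairpins against WT 4 of 5 inhibitors rose (Tnfaip3, Nfkbia, Nfkbiz and Nfkbie), and 1 subunit rose (Nfkb2) and 1 fell (Nfkb1). Of the 10 genes 6 were thus called, against 50.0% of all genes tested, so the share called was near the background. By direction 5 were called higher (24.1% of all genes) and 1 lower (25.9%). After scaling the libraries to 1 common total the 10 genes split the same way, while all genes split into 1945 higher and 3720 lower, against 2672 and 2866 on the deposited values. The median log2 change was 0.31 for the inhibitors and 0.09 for the subunits, against -0.01 over all genes. In 5 of the 10 genes the 4 knockdown libraries did not overlap the WT libraries (47.7% of all genes), 4 of them above WT (22.2%) and 1 below (25.5%). The plot by library shows this split between the rows of panels.

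**Figure D1:**
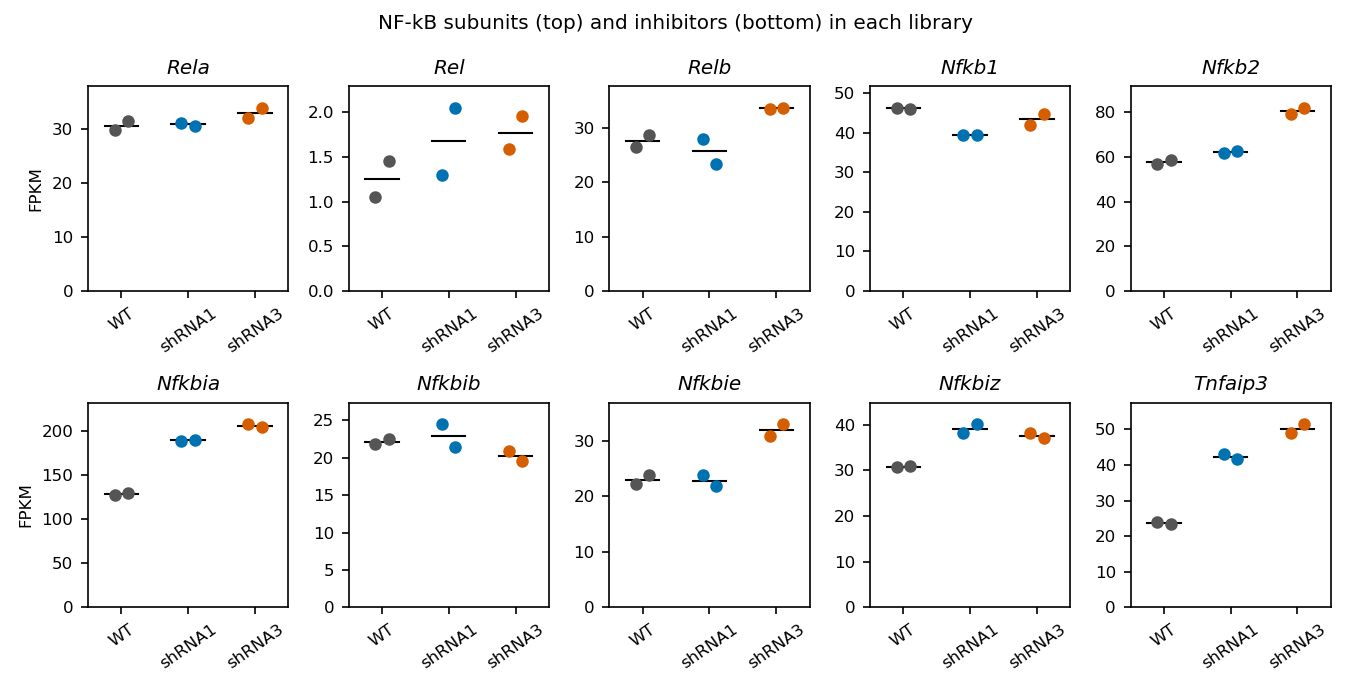
FPKM (vertical axes, from 0) of each gene in each of the 6 libraries, with points for libraries and lines for group means. Tnfaip3 and Nfkbia stand higher in all 4 knockdown libraries, Nfkb2, Relb and Nfkbie are highest with shRNA3, and Rela varies little.

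Among the inhibitors, Tnfaip3 encodes A20, a ubiquitin-editing enzyme that shuts down signalling below TNF and Toll-like receptors (chromosome 10, 19000910 to 19015657, minus strand, mm10). For Tnfaip3 the WT libraries gave 23.9 and 23.5 FPKM, the shRNA1 libraries 43.1 and 41.6 and the shRNA3 libraries 49.1 and 51.3. The 3 groups did not overlap, with WT lowest and shRNA3 highest. The mean rose 1.79-fold in shRNA1 cells and 2.12-fold in shRNA3 cells, and the log2 change over both was 0.93 ± 0.04 (SE, limma, adjusted p = 2.86e-06). It was the largest change among the 10 genes.

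Nfkbia encodes IkB-alpha, the main inhibitor of p65 and p50, whose resynthesis ends a pulse of NF-kB (chromosome 12, 55489410 to 55492647, minus strand). For Nfkbia the WT libraries gave 127.5 and 129.3 FPKM, the shRNA1 libraries 188.5 and 190.007 and the shRNA3 libraries 207 and 204. Every knockdown library was above both WT libraries, and the libraries of each group lay within 3 FPKM of each other. The mean rose 1.47-fold in shRNA1 cells and 1.60-fold in shRNA3 cells, with a log2 change over both of 0.62 ± 0.03 (SE, limma, adjusted p = 6.12e-06).

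Nfkbiz encodes IkB-zeta, an atypical nuclear member of the family that can also help to activate a subset of targets (chromosome 16, 55811375 to 55838899, minus strand). For Nfkbiz the WT libraries gave 30.8 and 30.9 FPKM, the shRNA1 libraries 38.2 and 40.1 and the shRNA3 libraries 38.2 and 37.1. Both hairpin groups lay above WT, and their nearest libraries were almost equal. The rise was 1.27-fold with shRNA1 and 1.22-fold with shRNA3 (log2 change over both 0.31 ± 0.04, SE, limma, adjusted p = 6.14e-04). The difference between the hairpins was -0.05 on the log2 scale, with a 95% interval of -0.16 to 0.06.

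Nfkbie encodes IkB-epsilon, a slower feedback inhibitor (chromosome 17, 45555703 to 45563169, plus strand). For Nfkbie the WT libraries gave 22.2 and 23.8 FPKM, the shRNA1 libraries 23.8 and 21.9 and the shRNA3 libraries 30.9 and 33.0. The shRNA1 libraries overlapped WT and the shRNA3 libraries stood above all others. The mean rose 1.39-fold with shRNA3 (log2 change 0.46 ± 0.06, SE, limma, adjusted p = 6.05e-04). With shRNA1 the log2 change was -0.01 (95% interval -0.16 to 0.14). The call over both hairpins (0.22, adjusted p = 0.0110) therefore came with the change of shRNA3, and it was lost without WT replicate 1 (0.18, adjusted p = 0.0917), with no filter (0.104) and with the knockdown libraries in a single group (0.391).

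Nfkbib encodes IkB-beta, a less inducible inhibitor (chromosome 7, 28758251 to 28767512, minus strand). For Nfkbib the WT libraries gave 21.8 and 22.5 FPKM, the shRNA1 libraries 24.5 and 21.4 and the shRNA3 libraries 20.9 and 19.5. The shRNA1 libraries spanned those of WT, and the shRNA3 libraries lay just under WT. It did not pass in any of the 4 comparisons, with a log2 change over both hairpins of -0.04 (95% interval -0.18 to 0.10). Its exons overlap those of Sirt2 on the other strand (mean 48.0 FPKM), and how the quantification treated strand is not known here, so the pair's reads may be mixed.

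Among the subunits, Nfkb2 encodes p100, the precursor of p52, which before it is cut retains RelB in the cytoplasm (chromosome 19, 46304320 to 46312385, plus strand). For Nfkb2 the WT libraries gave 56.8 and 58.7 FPKM, the shRNA1 libraries 61.6 and 62.8 and the shRNA3 libraries 79.0 and 81.8. The 3 groups did not overlap. With shRNA3 the mean rose 1.39-fold (log2 change 0.47 ± 0.04, SE, limma, adjusted p = 8.51e-05). With shRNA1 the mean was 1.08 times that of WT and did not pass (log2 change 0.11, adjusted p = 0.0970). The call over both (0.29, adjusted p = 5.60e-04) did not survive a fit that took the 4 knockdown libraries for a single group and so counted the gap between the hairpins as spread (adjusted p = 0.182, with a range over all settings of 4.32e-04 to 0.182). Nfkb2 shares exon positions with Psd on the other strand, at a mean of 2.503 FPKM.

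Relb encodes RelB, the partner of p52 (chromosome 7, 19606217 to 19629438, minus strand). For Relb the WT libraries gave 26.5 and 28.7 FPKM, the shRNA1 libraries 28.02 and 23.4 and the shRNA3 libraries 33.6 and 33.7. The shRNA3 libraries were above all others, and those of shRNA1 overlapped WT with the widest spread of the 3 groups. With shRNA3 the mean rose 1.22-fold (log2 change 0.28 ± 0.08, SE, limma, adjusted p = 0.0200). That call was lost without WT replicate 1 (adjusted p = 0.108), shRNA3 replicate 1 (0.0764) or shRNA3 replicate 2 (0.0827), over a range of 0.00564 to 0.197 for all settings. The log2 change with shRNA1 was -0.10 (95% interval -0.29 to 0.09).

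Nfkb1 encodes p105, the precursor of p50 (chromosome 3, 135584655 to 135691547, minus strand). For Nfkb1 the WT libraries gave 46.3 and 46.1 FPKM, the shRNA1 libraries 39.55 and 39.50 and the shRNA3 libraries 42.0 and 44.8. All 4 knockdown libraries were below WT, lowest with shRNA1. The mean fell to 85.6% of WT with shRNA1 (log2 change -0.22 ± 0.05, SE, limma, adjusted p = 0.00935, and 0.0537 with no filter), and at 94.0% of WT it did not pass with shRNA3 (log2 change -0.09, adjusted p = 0.149). The call over both (-0.15, adjusted p = 0.0157) was lost without WT replicate 1 (adjusted p = 0.0781) or WT replicate 2 (0.0671), with a range over all settings of 0.00586 to 0.185.

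Rela encodes p65, the subunit with the strongest activation domain in the canonical dimer (chromosome 19, 5637483 to 5648130, plus strand). For Rela the WT libraries gave 29.7 and 31.5 FPKM, the shRNA1 libraries 31.1 and 30.5 and the shRNA3 libraries 32.1 and 33.9. The shRNA1 libraries lay within the WT range and the shRNA3 libraries just above it. Its log2 change over both hairpins was 0.06 (95% interval -0.05 to 0.16), and it did not pass in any of the 4 comparisons. Rel encodes c-Rel, the subunit best known from lymphoid cells (chromosome 11, 23736847 to 23770970, minus strand). For Rel the WT libraries gave 1.055 and 1.46 FPKM, the shRNA1 libraries 1.30 and 2.05 and the shRNA3 libraries 1.59 and 1.96. The shRNA1 libraries overlapped WT and those of shRNA3 lay above it, and the 95% interval of its log2 change over both hairpins was wide (-0.07 to 0.60).

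**Figure D2:**
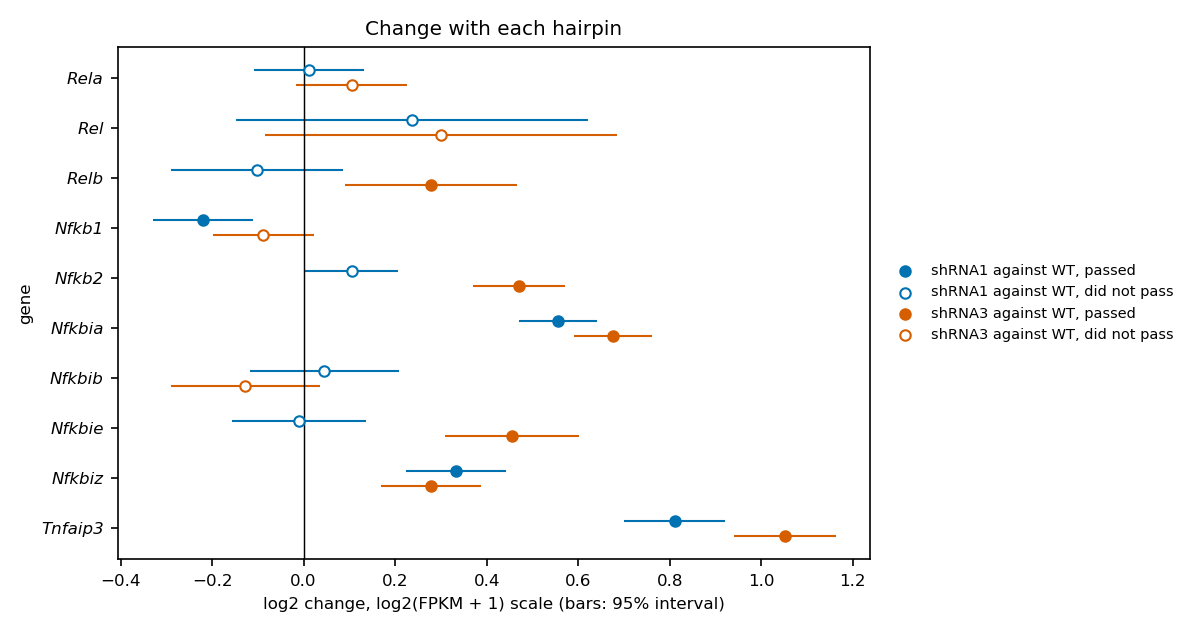
log2 change with each hairpin against WT (horizontal axis, log2(FPKM + 1) scale) for the 10 genes, with 95% intervals from limma. Filled points passed at an adjusted p under 0.05. Tnfaip3, Nfkbia and Nfkbiz were higher with each hairpin and Relb, Nfkb2 and Nfkbie with shRNA3, while Nfkb1 was lower with shRNA1.

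By hairpin, 3 genes rose and 1 fell with shRNA1, where 17.6% and 18.4% of all genes were called higher and lower (36.0% in all). With shRNA3 6 rose and 0 fell, where 27.4% and 27.8% were called (55.2% in all). At an unadjusted p under 0.05 0 of the 10 were lower with shRNA3, but after scaling to a common total Nfkb1 (-0.16, adjusted p = 0.0404) and Nfkbib (-0.20, adjusted p = 0.0309) were called lower by limma, and the median of all genes moved to -0.08. The 2 contrasts share the WT libraries. The difference between the hairpins was tested directly. In shRNA3 against shRNA1, 5 of the 10 were higher and 0 lower, against 22.0% and 20.5% of all genes (42.5% in all). Nfkbib was lower at an unadjusted p of 0.0409. The differences on the log2 scale were 0.47 for Nfkbie (adjusted p = 9.70e-04), 0.38 for Relb (0.00738), 0.37 for Nfkb2 (5.46e-04), 0.24 for Tnfaip3 (0.00549) and 0.12 for Nfkbia (0.0321), all by limma. The difference of Relb did not pass with no filter (adjusted p = 0.128). That of Nfkbia did not pass once any 1 of the 4 hairpin libraries was left out (adjusted p from 0.0790 to 0.121). The genes of the noncanonical dimer, Nfkb2 and Relb, were thus higher with shRNA3 than with shRNA1.

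FPKM is a level per length, so the genes can be ranked within a library. In WT Nfkbia was highest (mean 128 FPKM), ahead of Nfkb2 (57.8) and Nfkb1 (46.2). Nfkbiz (30.9) and Rela (30.6) overlapped, Relb (27.6) followed, and Tnfaip3 (23.7), Nfkbie (23.0) and Nfkbib (22.1) overlapped with their neighbours in this order. Rel was lowest at 1.26 FPKM. With shRNA3 Tnfaip3 (50.2 ± 1.60) stood above Nfkb1 (43.4 ± 1.98).

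Sums and ratios within a library, chosen after the values were seen, do not depend on library scaling where they are ratios. The 5 subunits summed to 163 ± 4.29 FPKM in WT, 160 ± 2.32 with shRNA1 and 192 ± 5.60 with shRNA3. The 5 inhibitors summed to 228 ± 2.59, 317 ± 2.205 and 346 ± 0.706 FPKM. Nfkbia alone made up 56.3% of the inhibitor sum in WT, 59.8% with shRNA1 and 59.5% with shRNA3, so the sum mostly follows that gene. Inhibitor over subunit RNA was 1.40 ± 0.0208 in WT, 1.98 ± 0.0149 with shRNA1 and 1.80 ± 0.0561 with shRNA3. The hairpin group with the smaller rise of Nfkbia thus had the higher ratio, since the subunit sum was higher with shRNA3. Nfkbia over Rela was 4.29 and 4.11 in the WT libraries, 6.05 and 6.22 in those of shRNA1 and 6.46 and 6.03 in those of shRNA3. Nfkb2 over Nfkb1 was 1.23 and 1.27 in the WT libraries, 1.56 and 1.59 in those of shRNA1 and 1.88 and 1.83 in those of shRNA3. Nfkb2 made up 35.4% of subunit RNA in WT, 38.9% with shRNA1 and 41.8% with shRNA3, while Nfkb1 made up 28.3%, 24.7% and 22.6%.

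**Figure D3:**
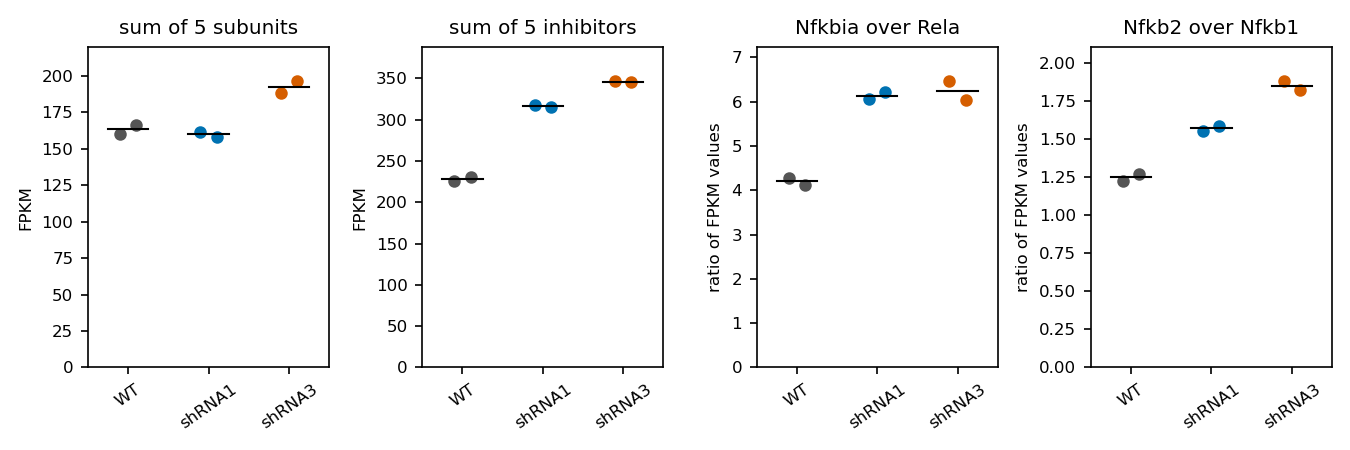
Summed FPKM of the 5 subunits and of the 5 inhibitors, and the ratios of Nfkbia to Rela and of Nfkb2 to Nfkb1 (vertical axes, from 0), in each library, with lines for group means. The inhibitor sum is higher in all 4 knockdown libraries, and the Nfkb2 to Nfkb1 ratio is ordered WT, shRNA1, shRNA3.

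The rest of the pathway was followed by lists of genes. Ligands were low: 11 of 12 were under the filter, Tnf (mean 0.0853 FPKM) and Il1b (0.355) among them. Il33, an alarmin of the IL-1 family, was at 15.7 ± 1.15 FPKM in WT and rose 1.27-fold in shRNA1 and 1.17-fold in shRNA3 cells. Of 13 receptors tested 5 rose and 4 fell over both hairpins, with a median log2 change of 0.05. Over all genes 24.1% were called higher and 25.9% lower in this comparison, and the counts of the lists that follow read against the same shares. Tlr4, the receptor for bacterial lipopolysaccharide, rose 1.29-fold over both hairpins, and the low genes Cd40 and Tlr6 rose by 0.48 and 0.40 on the log2 scale. Cd40 and Tlr6 passed with shRNA3 (0.65 and 0.41, limma, adjusted p = 0.00665 and 0.0432) but not with shRNA1 (0.31 and 0.38, 0.133 and 0.0786). For neither gene did the difference between the hairpins pass (0.104 and 0.875). Ltbr, the lymphotoxin receptor that feeds the noncanonical route, was 1.37-fold lower, Tlr2 1.38-fold lower and Tlr3 1.27-fold lower. Tlr3 passed with shRNA3 (-0.51, limma, adjusted p = 0.00366) but not with shRNA1 (-0.02, 0.902), and the difference between the hairpins passed (0.00661).

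Among 22 adaptors and ubiquitin ligases 7 rose and 3 fell, near the 50.0% called over all genes, with a median log2 change of 0.02. Ripk1, the kinase of the TNF receptor complex, gave 10.2 and 9.57 FPKM in the WT libraries, 7.03 and 7.06 in shRNA1, and 4.73 and 4.65 in shRNA3. Its 3 groups did not overlap, and it fell most of the list (log2 change over both -0.69, limma, adjusted p = 6.79e-05). Birc3, encoding the ubiquitin ligase cIAP2 and itself an NF-kB target, gave 8.57 and 8.86 FPKM in the WT libraries, 14.2 and 13.7 in shRNA1, and 18.5 and 19.4 in shRNA3 (log2 change 0.83, limma, adjusted p = 1.35e-05). Birc2, which encodes cIAP1, rose 1.47-fold, and Card10, a scaffold upstream of IKK, 1.39-fold. Traf6 and Irak1, signal carriers below IL-1 and Toll-like receptors, were 1.26-fold and 1.14-fold lower. Traf6 passed with shRNA3 (-0.34, limma, adjusted p = 0.00953) but not with shRNA1 (-0.23, 0.0635), and the difference between the hairpins did not pass (0.327). Irak1 passed with shRNA3 (-0.37, limma, adjusted p = 0.00117) but not with shRNA1 (-0.02, 0.836), and the difference between the hairpins passed (0.00252).

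Of 13 kinases and kinase partners 4 rose and 2 fell, also near the 50.0% of all genes, with a median log2 change of 0.03. Map3k14, which encodes NIK, the kinase that starts the noncanonical route, gave 8.24 and 9.18 FPKM in the WT libraries, 12.97 and 11.9 in shRNA1, and 15.6 and 18.03 in shRNA3. Its groups did not overlap, and its difference between the hairpins passed (0.41, limma, adjusted p = 0.00704). Map3k8, encoding the kinase TPL-2, which p105 holds inactive, rose 1.84-fold, and Ikbke, an IKK-related kinase, 1.42-fold. Tab3 and Map3k7, which encode partner and catalytic subunit of the TAK1 kinase, were 1.20-fold and 1.14-fold lower. Both passed with shRNA3 (-0.36 and -0.30, limma, adjusted p = 0.00866 and 0.00521) but not with shRNA1 (-0.09 and -0.06, 0.467 and 0.483). The 3 IKK subunit genes, picked after their values were seen, did not pass over both hairpins, with log2 changes of -0.13 for Chuk, 0.02 for Ikbkb and 0.03 for Ikbkg.

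Of 15 further inhibitors and deubiquitinases 5 rose and 3 fell, again near the 50.0% of all genes, with a median log2 change of -0.06. Tnip3, which encodes an A20-binding protein, gave 2.47 and 2.34 FPKM in the WT libraries, 4.51 and 4.86 in shRNA1, and 2.49 and 2.63 in shRNA3. It was thus high with shRNA1, and the difference between the hairpins passed (-0.68, limma, adjusted p = 8.31e-04). Cyld, a deubiquitinase, rose 1.32-fold over both hairpins, and Bcl3, an atypical nuclear IkB protein, 1.22-fold. Bcl3 passed with shRNA1 (0.34, limma, adjusted p = 0.0251) but not with shRNA3 (0.24, 0.0566), and the difference between the hairpins did not pass (0.446). Cyld passed with shRNA3 (0.55, limma, adjusted p = 1.65e-04) but not with shRNA1 (0.15, 0.0849), and the difference between the hairpins passed (0.00134). The A20 partners Tax1bp1 and Tnip1 were 1.18-fold and 1.16-fold lower, and Itch, a ubiquitin ligase that works with A20, 1.10-fold lower. Itch passed with shRNA1 (-0.22, limma, adjusted p = 0.0158) but not with shRNA3 (-0.06, 0.345).

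**Figure D4:**
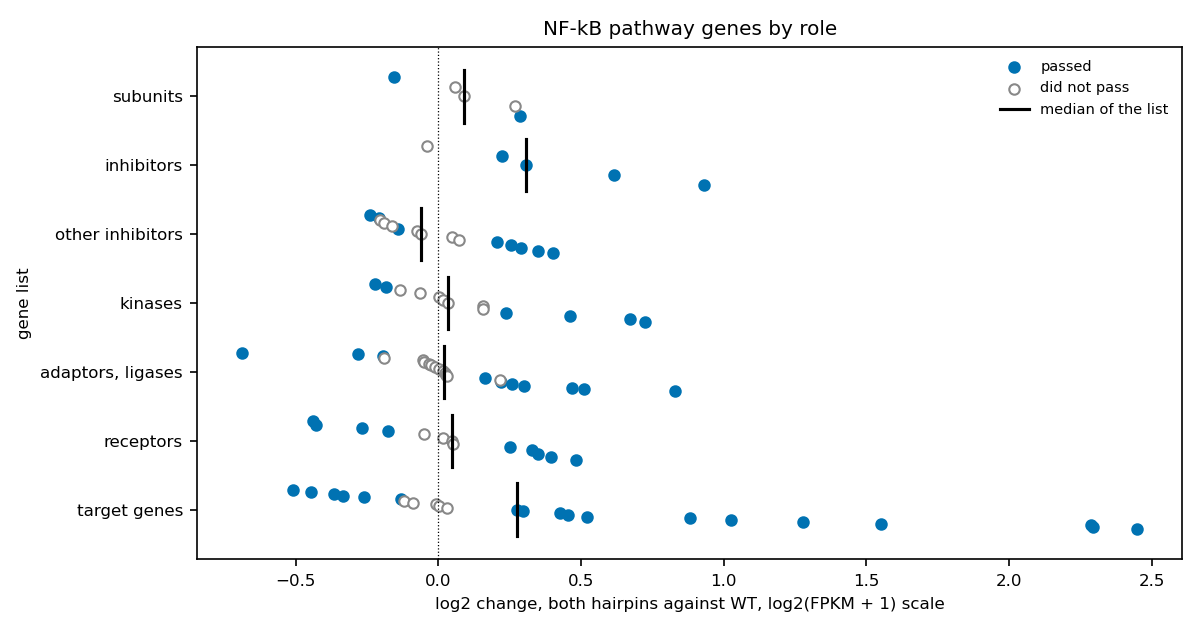
log2 change over both hairpins against WT (horizontal axis, log2(FPKM + 1) scale) for each tested gene, by list (vertical axis). Filled points passed at an adjusted p under 0.05, and bars mark list medians, from -0.06 for the further inhibitors to 0.31 for the 5 inhibitors; ligands are left out, as 1 was tested.

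Known target genes moved in both directions. Of 23 tested 12 rose and 6 fell over both hairpins, with a median log2 change of 0.28, against 50.0% of all genes called and a median of -0.01. Several of these genes were known to change in these data when the list was made, so the list is not independent evidence. Nos2, the inducible nitric oxide synthase, was 5.97-fold higher with shRNA1 and 7.08-fold higher with shRNA3. Ptx3, a secreted pattern recognition protein, was 4.44-fold and 8.56-fold higher, and Gadd45b, a stress sensor, 3.33-fold and 9.47-fold higher. Bcl2l1, which encodes the survival factor Bcl-xL, was 1.29-fold lower over both hairpins. Csf2, the GM-CSF gene, was at 2.24 and 2.41 FPKM in WT and at 0.848 to 2.12 FPKM in the knockdown libraries (log2 change -0.51, limma, adjusted p = 0.0207). Csf2 passed with shRNA3 (-0.70, limma, adjusted p = 0.00846) but not with shRNA1 (-0.31, 0.181), and the difference between the hairpins did not pass (0.0978). Csf3, the G-CSF gene, was called lower over both (-0.45, limma, adjusted p = 3.81e-05), but it rose 1.62-fold with shRNA1 and was 3.05-fold lower with shRNA3. The difference between the hairpins was -2.27 on the log2 scale (limma, adjusted p = 4.88e-08). By hairpin 15 targets rose and 3 fell with shRNA1 (median 0.25), where 17.6% of all genes were called higher and 18.4% lower. With shRNA3 11 rose and 6 fell (median 0.02), where these shares were 27.4% and 27.8%. In shRNA3 against shRNA1 8 were higher and 8 lower, against 22.0% and 20.5% of all genes.

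Of the 30 genes named from these further lists 19 kept their call over both hairpins whichever library was left out, and 11 did not. Without WT replicate 2 the call ended for Il33 (adjusted p = 0.0736), Irak1 (0.114), Cd40 (0.0824) and Traf6 (0.0755), the last also without WT replicate 1 (0.0529). Csf2 was lost without WT replicate 1 (0.0678), WT replicate 2 (0.0995) or shRNA3 replicate 1 (0.0536), and Bcl3 without WT replicate 1 (0.129), shRNA1 replicate 1 (0.0508) or shRNA3 replicate 2 (0.0533). Itch, Map3k7, Tab3, Tlr3 and Tlr6 each lost it in at least 4 of the 6 fits that left out a library. Among these 5 genes the highest adjusted p was 0.262 for Itch, 0.266 for Map3k7, 0.249 for Tab3, 0.363 for Tlr3 and 0.222 for Tlr6 over all settings. With no filter none of these 11 genes passed (adjusted p from 0.0802 to 0.219). Fitting the knockdown libraries as a single group ended 17 of the 30 calls, those of these 11 genes and of Csf3 (adjusted p = 0.706), Tnip3 (0.283), Cyld (0.150), Birc2 (0.0650), Bcl2l1 (0.0599) and Tnip1 (0.0589). The rise of Il33 with shRNA1 and with shRNA3 was each lost in some settings (up to 0.115 and 0.196), and the hairpin difference of Map3k14 without shRNA3 replicate 2 (0.05003).

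The genes whose pattern was most like that of Tnfaip3, the gene of the 10 with the largest change, were Sema4g (a semaphorin), Vcl (vinculin) and Fst (follistatin). Likeness was the Euclidean distance over the 6 libraries of log2(FPKM + 1) set to 0 at the WT mean, and was 0.101, 0.134 and 0.170. Vcl had 39.5 ± 1.77 FPKM in WT, 68.7 ± 1.21 in shRNA1 and 87.3 ± 3.30 in shRNA3 cells. Sema4g went from 3.95 ± 0.212 to 7.91 ± 0.0735 and 9.35 ± 0.412 FPKM. Fst, a low gene, went from 0.68 ± 0.105 to 1.94 ± 0.117 and 2.25 ± 0.0537 FPKM. In FPKM its relative rise was larger than that of Tnfaip3, as the log2(FPKM + 1) scale understates changes of low genes.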

How the data were processed

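Each library's deposited table holds a gene symbol and a value, taken to be FPKM because the submitters' processing notes name Cufflinks 2.2.1. SAMtools 0.1.19, Bowtie2 2.2.3, TopHat2 2.0.13 and the build mm10 are listed there too, without roles. The kit was stranded and for mRNA, per the labels' protocols. Groups came from the sample titles. Genes whose mean reached 1 FPKM were fitted on log2(FPKM + 1) with limma 3.58.1 (R 4.3.3), a means model of 3 groups over 6 libraries with a trend in the prior variance (3 residual and 4.96 prior degrees of freedom), two-sided. No count test was used, as the files hold no counts, and no group has over 2 libraries. FPKM is relative to the mapped total, so abundant rising genes lower others. The members and lists were chosen with earlier results of these data known. All 10 members are named. From each other list up to 3 called genes in each direction with the largest change over both hairpins are named, and for the member with the largest change its 3 most similar genes. Coordinates are from GENCODE mouse release 21 (GRCm38, the assembly of mm10). The fit was tested on simulated data in which few genes changed, each by the same amount with both hairpins. In the real data 50.0% of genes were called over both hairpins and 42.5% between the hairpins, a setting the simulation did not cover. Tables and figures were made with matplotlib 3.10.9, SciPy 1.17.1, NumPy 2.4.6, pandas 2.3.3 and Python 3.11.15. Alternatives tried were a pseudocount of 0.1 or 0.5, no filter or a mean of at least 5 FPKM, 3 other scalings, a replicate term, the knockdown libraries as 1 group, and each library left out.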

Additional observations from a re-analysis of the deposited data

Results flagged for a closer look

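For 5 of the 10 genes the hairpins' effects against the same WT libraries differed, by limma's test of shRNA3 against shRNA1. The log2 difference was 0.47 for Nfkbie, 0.38 for Relb, 0.37 for Nfkb2, 0.24 for Tnfaip3 and 0.12 for Nfkbia, each higher with shRNA3. Over all genes tested 42.5% were called in this comparison. The difference of Nfkbia did not pass under 6 of 14 alternatives, with adjusted p from 0.0102 to 0.121. AU021063 itself was at 46.3% of its WT mean with shRNA1 and 22.5% with shRNA3, and its part in these differences was not tested. Its values were low, and the libraries of the hairpins overlapped (1.045 and 0.572 FPKM with shRNA1, 0.785 and a listed 0 with shRNA3).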

How the results depend on the processing

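Of 40 results (10 genes in 4 comparisons) 29 stayed on the same side of the threshold under every alternative run, and 0 called values changed sign. Tnfaip3, Nfkbia and Nfkbiz passed against WT under all of them, over both hairpins and with each. With the 4 knockdown libraries fitted as 1 group, 3 of the 10 genes were called over both hairpins in place of 6, and 1513 of all genes in place of 5538. With no filter the counts over all genes were 3415 over both hairpins, 1890 for shRNA1 against WT (3989 with the filter) and 2358 for shRNA3 against shRNA1 (4713), among 24346 symbols tested. Leaving out each library in turn gave 4 to 6 of the 10 genes over both hairpins, 4 to 4 with shRNA1, 5 to 6 with shRNA3 and 4 to 5 between the hairpins. Over all genes it gave 2604 to 3682 calls for shRNA1 against WT, lowest without shRNA1 replicate 2. Where a group kept 1 library, that library was assumed to vary like the others. The same settings were applied, after their values were seen, to 30 named genes of the other lists, and 13 kept their call over both hairpins under all of them. Rel was not tested at a mean of at least 5 FPKM.

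The groups share replicate numbers, but the labels do not say that a number pairs libraries. The correlations of the deviations of same-numbered libraries were 0.0103, -0.0719 and 0.199 between the group pairs. With the replicate block 6, 4, 6 and 4 of the 10 genes were called in the 4 comparisons, against 6, 4, 6 and 5, the difference being Nfkbia between the hairpins (adjusted p = 0.0683). Over all genes the block gave 5205, 3523, 5797 and 4308 calls. Absolute depth is not known, so no counting error can be given.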

Other observations

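Of the 6 NF-kB target genes on the list with the highest mean FPKM, picked after their values were seen, 5 were higher with shRNA1 than with shRNA3 (Lcn2, Cxcl1, Cxcl5, Ier3 and Saa3) and 1 did not pass (Ccl2). In shRNA3 against shRNA1 20.5% of all genes were called lower and 22.0% higher (42.5% in all). Over the 23 targets tested the split was even, with 8 lower and 8 higher. Lcn2, which encodes the iron-siderophore binding protein lipocalin-2, was at 6283 ± 57.1 FPKM in WT, 7200 ± 32.4 with shRNA1 and 4586 ± 139.5 with shRNA3 (n = 2 each), with log2 changes of 0.20 (limma, adjusted p = 0.00929) and -0.45 (8.84e-05). The first of these calls was lost once any 1 of the WT or shRNA1 libraries was left out (adjusted p from 0.0671 to 0.0824), and each of them with no filter (0.845 and 0.269) and with quantile normalization (0.183 and 0.0988). The neutrophil chemokine gene Cxcl1 rose by 0.48 on the log2 scale with shRNA1 (limma, adjusted p = 3.43e-04) and changed by -0.41 with shRNA3 (3.35e-04). Cxcl5, another neutrophil chemokine gene, changed by 0.24 (limma, adjusted p = 0.0116) and -0.47 (2.28e-04), the first lost without WT replicate 2 (0.0739) or shRNA1 replicate 2 (0.0779), with no filter (0.136) and with quantile normalization (0.10, adjusted p = 0.180). Ier3, an early response gene, was at 221 ± 1.83 FPKM in WT, 566 ± 32.2 with shRNA1 and 360 ± 0.5996 with shRNA3, and Saa3, an acute phase gene, at 312 ± 15.02, 474 ± 13.8 and 302 ± 23.9. In shRNA3 against shRNA1 the differences were -0.65 for Lcn2 (limma, adjusted p = 3.96e-05), -0.89 for Cxcl1 (2.38e-05), -0.71 for Cxcl5 (7.53e-05), -0.65 for Ier3 (5.64e-05) and -0.65 for Saa3 (1.82e-04). That of Lcn2 did not pass with no filter (0.160). Ccl2, which attracts monocytes, rose with each, by 0.51 and 0.53 (limma, adjusted p = 7.96e-05 and 3.56e-05). Mmp9 and Ccl5, the next by level, did not share this order. Ptgs2 and Csf3, which followed them, did, with differences of -0.15 (limma, adjusted p = 0.0421) and -2.27 (4.88e-08). Mmp9, which encodes a matrix protease, was at 207 ± 5.06 FPKM with shRNA1 and 208 ± 3.58 with shRNA3, and the chemokine gene Ccl5 was lower with shRNA1 (92.3 ± 3.21) than with shRNA3 (152 ± 3.27, limma, adjusted p = 3.03e-04).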
